A study of Saccharomyces cerevisiae with 6 samples.

Results

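In myo1Δ strains of budding yeast, 7 genes of the eisosome and of the Sur7 family of membrane proteins were followed: SUR7, FMP45, YNL194C, PUN1, PIL1, LSP1 and NCE102. They were taken by name or systematic name (SUR7 is YML052W, FMP45 is YDL222C, PUN1 is YLR414C, PIL1 is YGR086C, LSP1 is YPL004C and NCE102 is YPR149W), which gave 7 of the 6256 genes on the array and 13 of its 10263 gene spots. FMP45 has 1 spot and the other members have 2 each. The genes lie on chromosomes XIII (SUR7), IV (FMP45), XIV (YNL194C), XII (PUN1), VII (PIL1) and XVI (LSP1 and NCE102).

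MYO1 encodes the heavy chain of the myosin II of the bud neck, and the study asked how gene expression differs in strains that lack it. Each of 6 Agilent yeast oligonucleotide arrays was hybridized with mutant RNA in one dye and wild type RNA in the other. Arrays 1 to 3 carried YJR13 (myo1delta::HIS5+, MATa) and YJR12 (wild type, MATα), haploid segregants of a cross of YJR6 with BY4741. Arrays 4 to 6 carried YJR6 (myo1delta::HIS5+, MATα) and MGD353-46D (wild type, MATα), the strain in which YJR6 was made. All 4 strains carry trp1, ura3, leu2 and his3delta1 mutations, ADE+ and the cyhR marker, and the study lists YJR12 as ARG+ and the others as ARG. Each genotype of a pair is a single strain, grown overnight at 26°C. The labels place YJR6 in histidine dropout medium, in which a his3 strain without HIS5+ cannot grow, and the wording of the study pairs that medium with the mutants and complete synthetic medium with the wild types. Medium and genotype can therefore not be told apart on any of the arrays. Mating type differs from YJR12 in YJR13 as well. The methods state triplicate biological replicate cultures of each strain.

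Eisosomes are stable protein assemblies under the plasma membrane of yeast that shape it into short furrows. The furrows form a membrane domain called the MCC (membrane compartment of Can1), which holds nutrient permeases and tetraspan proteins. Pil1 and Lsp1, membrane-bending proteins with BAR domains, are the main coat components, while Sur7, Fmp45, Ynl194c, Pun1 and Nce102 are integral proteins of the domain. The compartment is known for its part in sphingolipid signaling, in the response to membrane stress and in the turnover of permeases.

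By the sample labels the mutant was in the Cy5 channel of arrays 1, 3, 4 and 6 and in the Cy3 channel of arrays 2 and 5. The image name shared by arrays 1 and 2 gives the dye order of array 2. The deleted gene MYO1 was lower in the mutant on each array, at log2 ratios of -2.11, -1.45, -1.69, -3.53, -1.46 and -2.77 on arrays 1 to 6 (mean -2.17, SE 0.29, adjusted p = 0.0047 from limma). Its mutant channels were 1.02 to 1.12 times the local background, and its wild type channels 1.40 to 4.78 times. Array 3 stood apart from the rest. Across genes, r between its log2 ratios and those of another array was 0.146 to 0.477, whereas r between any 2 of the remaining 5 arrays was 0.548 to 0.771, values given as a description because genes are not replicates.

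Of the 7 members, 6 were higher and 1 was lower in myo1Δ than in wild type cells at an adjusted p of 0.05 (limma over 6 arrays, Benjamini-Hochberg over 6255 genes), where 14.2% of all genes were higher and 12.9% were lower. YNL194C, NCE102 and LSP1 also passed 0.01, as did 3.47% of all genes in that direction, and 0 members were lower at 0.01, where 3.96% of all genes were. The rises were 8.32-fold for YNL194C, 6.19-fold for NCE102, 5.19-fold for LSP1, 5.18-fold for FMP45, 4.03-fold for PIL1 and 1.69-fold for PUN1. SUR7, the gene that names the family, was 1.49-fold lower. The mean log2 ratio exceeded 1 in 5 of 7 members, against 7.63% of all genes. Without array 3, 6 members were again higher and 1 was lower at 0.05, and 5 of the rises passed 0.01. The count at 0.01 was 0 without array 2, 0 without array 4 and 1 without array 6, and the count of 1 lower member at 0.05 was 0 without array 1, 2, 5 or 6.

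**Figure D1:**
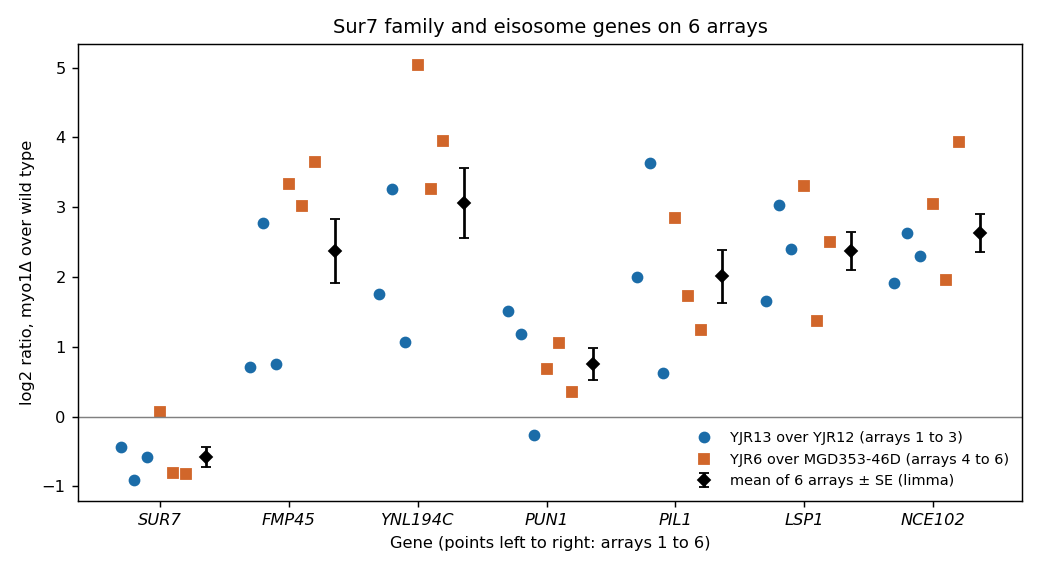
Log2 ratio of myo1Δ over wild type (y axis) for each member (x axis) on arrays 1 to 6, with circles for YJR13 over YJR12, squares for YJR6 over MGD353-46D and diamonds for the mean of 6 arrays with its SE. FMP45, YNL194C, PIL1, LSP1 and NCE102 lie above 0 on all 6 arrays, and SUR7 lies below 0 on arrays 1, 2, 3, 5 and 6.

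The coat genes come first. PIL1, which encodes the most abundant coat protein, had log2 ratios of 2.00, 3.63 and 0.62 for YJR13 over YJR12 and of 2.85, 1.72 and 1.25 for YJR6 over MGD353-46D. All 6 arrays were above 0, with arrays 2 and 4 highest and array 3 lowest. The mean was 2.01 (SE 0.38, adjusted p = 0.0119). Its spots were bright, at 8.31 to 44.9 times background in mutant channels and 3.02 to 25.5 times in wild type channels. On array 3 its 2 spots differed by 1.08 on the log2 scale, the largest spot difference of any member.

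LSP1, the paralogue of PIL1, had log2 ratios of 1.66, 3.03 and 2.41 for YJR13 over YJR12 and of 3.30, 1.36 and 2.49 for YJR6 over MGD353-46D. It was higher in the mutant on every array and, unlike PIL1, not low on array 3. The mean was 2.37 (SE 0.27, adjusted p = 0.0034). One of its 2 spots was marked poor on array 6, and the value there comes from the other. PIL1 exceeded LSP1 on 3 of 6 arrays and was below it on the other 3, with a mean difference of -0.36 on the log2 scale (SD 0.98) and an exact sign-flip p of 0.4375, two-sided. On single arrays the difference ran between -1.78 and 0.60. The paralogues are alike in sequence, and RNA shared between their probes was not tested.

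NCE102 encodes a tetraspan protein known as a sphingolipid sensor that is needed for the furrows to form. Its log2 ratios were 1.92, 2.63 and 2.31 for YJR13 over YJR12 and 3.04, 1.95 and 3.93 for YJR6 over MGD353-46D. The lowest array was still 1.92, and the mean was 2.63 (SE 0.27, adjusted p = 0.0032). NCE102 had the smallest p of the 7 members, at rank 45 of the genes tested.

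FHN1, the paralogue of NCE102, had log2 ratios of 0.32, 0.67 and -0.11 for YJR13 over YJR12 and of 1.33, 1.54 and 0.12 for YJR6 over MGD353-46D. Its mean was 0.65 (SE 0.24, adjusted p = 0.0866). NCE102 exceeded FHN1 on 6 of 6 arrays, by 1.98 on the log2 scale (SD 1.12, exact sign-flip p = 0.03125, the smallest that 6 arrays can give, 0.0391 after adjustment over 5 pairs). The FHN1 spot was dim, at 1.09 to 1.96 times background in mutant channels and 1.05 to 1.18 times in wild type channels.

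SUR7 and its 2 closest relatives among the members moved in opposite directions. SUR7 encodes the tetraspan protein by which the domain is usually seen in the microscope. It had log2 ratios of -0.43, -0.91 and -0.58 for YJR13 over YJR12 and of 0.06, -0.80 and -0.81 for YJR6 over MGD353-46D. Array 4 was near 0 and the other 5 arrays were below it. The mean was -0.58 (SE 0.14, adjusted p = 0.0266). The spots were 1.44 to 2.75 times background in mutant channels and 1.56 to 3.95 times in wild type channels. Array medians over all gene spots were 1.54 to 2.15 and 1.22 to 2.55 in the same channels. The call was lost without array 1, 2, 5 or 6 (adjusted p of 0.0565 to 0.0787) and after median centring in place of loess (-0.43, adjusted p = 0.188). Tested on its own, 1 of the 2 SUR7 spots passed (-0.67, adjusted p = 0.0178) and the other did not (-0.49, adjusted p = 0.149).

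FMP45, a Sur7 paralogue whose protein is found in the same domain and in mitochondrial preparations, had log2 ratios of 0.71, 2.77 and 0.75 for YJR13 over YJR12 and of 3.34, 3.01 and 3.65 for YJR6 over MGD353-46D. All were above 0, and arrays 1 and 3 were the lowest. The mean was 2.37 (SE 0.45, adjusted p = 0.0123). Its spot was 1.66 to 7.38 times background in mutant channels and 1.08 to 1.28 times in wild type channels.

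YNL194C, the other close Sur7 paralogue, had log2 ratios of 1.76, 3.26 and 1.07 for YJR13 over YJR12 and of 5.04, 3.26 and 3.94 for YJR6 over MGD353-46D. Array 4 was the highest and array 3 the lowest. The mean was 3.06 (SE 0.50, adjusted p = 0.0079). Its spots were 2.14 to 13.2 times background in mutant channels and 1.06 to 1.58 times in wild type channels. At least 1 of its 2 spots exceeded the 95th percentile of the negative controls in 5 of 6 wild type channels. The exception was array 1, where neither spot did (1.083 and 1.068 times background, against 1.086 at that percentile). On array 3 only 1 spot did (1.12 and 1.07 times background, against 1.10 at that percentile). With wild type channels this close to background, the size of both rises moves with the background correction, between 1.49 and 3.75 for FMP45 and between 2.05 and 4.99 for YNL194C over the alternatives tried.

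Within arrays SUR7 was below both paralogues on 6 of 6 arrays, with a mean difference in log2 ratio of -2.95 (SD 1.38) from FMP45 and of -3.64 (SD 1.38) from YNL194C. FMP45 was below YNL194C on 6 of 6 arrays, with a mean difference of -0.68 (SD 0.58). With wild type channels of both near background, its size ran between -1.24 and -0.56 over the alternatives. Each of these 3 differences had an exact sign-flip p of 0.03125, the smallest that 6 arrays can give, and 0.0391 after adjustment over 5 pairs. None of the 3 passed 0.05 after adjustment with plain background subtraction (0.0521) or with normexp at an offset of 0 (0.0781 to 0.104). The differences were larger in both settings, at -4.20 and -4.52 for SUR7 minus FMP45 and -5.17 and -5.77 for SUR7 minus YNL194C. The adjustment is shared by the 5 pairs, so the adjusted p of 1 pair depends on the others as well. NCE102 against FHN1 lost its call too (adjusted p = 0.117 and 0.234).

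**Figure D2:**
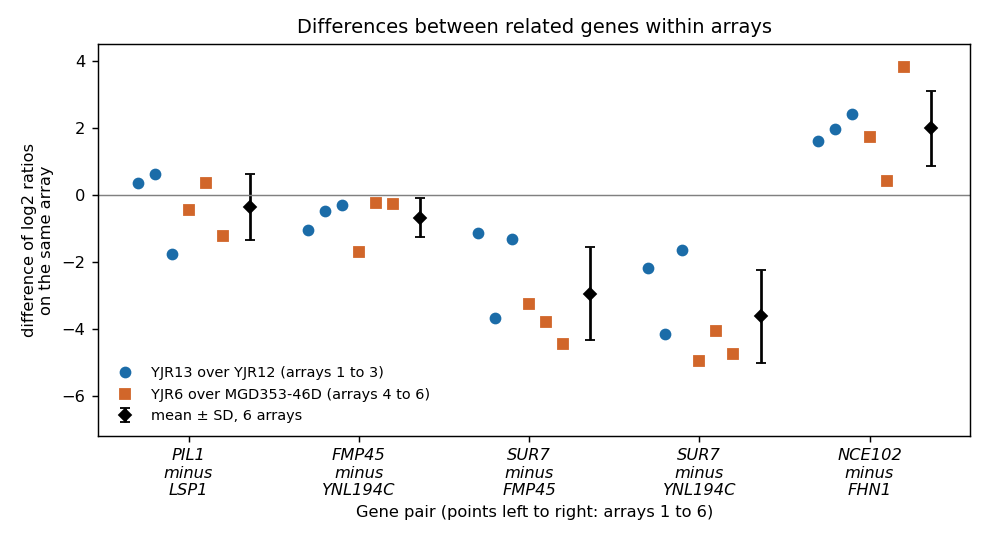
Difference of the log2 ratios of 2 related genes on the same array (y axis) for 5 pairs (x axis), with circles for arrays 1 to 3, squares for arrays 4 to 6 and diamonds for the mean with its SD over 6 arrays. PIL1 and LSP1 scatter around 0, and the 3 differences among SUR7, FMP45 and YNL194C are below 0 on all arrays.

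PUN1 encodes a tetraspan protein of the same domain that is known from nitrogen stress and filamentous growth. Its log2 ratios were 1.52, 1.19 and -0.26 for YJR13 over YJR12 and 0.69, 1.06 and 0.36 for YJR6 over MGD353-46D. Array 3 was the only one below 0. The mean was 0.76 (SE 0.23, adjusted p = 0.0491), close to the threshold, and without array 3 it was 0.96 (adjusted p = 0.0135). Leaving out any other single array gave adjusted p of 0.0769 to 0.129, scaling the arrays to the same spread gave 0.109, the strain pair as a block 0.0671 and no background correction 0.0573. Its adjusted p was the highest of the 6 rises. Tested on its own in limma, 1 of the 2 PUN1 spots passed (0.79, adjusted p = 0.0243). The other did not (0.73, adjusted p = 0.118). On array 3 the spots were at -0.68 and 0.16.

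By strain pair the members kept their direction of change. For YJR13 over YJR12, mean log2 ratios were 2.36 for LSP1, 2.29 for NCE102, 2.08 for PIL1, 2.03 for YNL194C, 1.41 for FMP45, 0.82 for PUN1 and -0.64 for SUR7 (n = 3 arrays). For YJR6 over MGD353-46D they were 2.39 for LSP1, 2.97 for NCE102, 1.94 for PIL1, 4.08 for YNL194C, 3.33 for FMP45, 0.70 for PUN1 and -0.52 for SUR7 (n = 3 arrays). The distance between the pairs was widest for YNL194C and FMP45, followed by NCE102. Median centring in place of loess gave 0.94 for PIL1 and 1.42 for LSP1 in the YJR6 pair. Across all alternatives FMP45 ran between 0.73 and 3.01 for YJR13 over YJR12 and between 2.21 and 4.48 for YJR6 over MGD353-46D, and YNL194C between 1.14 and 4.49 and between 2.96 and 5.49 in the same pairs.

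At an adjusted p of 0.05 in limma, 0 members were higher in the YJR13 pair, where 0.576% of all genes were, and 4 (FMP45, YNL194C, LSP1 and NCE102) in the YJR6 pair, where 9.94% were. In the other direction 0 members were lower in either pair, against 0.671% of all genes for YJR13 and 8.2% for YJR6. These counts move with the processing. Plain subtraction and an offset of 0 each called 5 members higher for YJR13 and 5 for YJR6, median centring and scaling each called 5 for YJR13 and 4 for YJR6, and without array 4 or 6 the YJR6 pair had 0. In the YJR13 pair 5 members were higher and 1 was lower at an unadjusted p under 0.05, as were 683 and 672 of 6255 genes. The difference itself, YJR13 pair minus YJR6 pair, was -1.92 for FMP45 (95% interval -3.36 to -0.48, unadjusted p = 0.0169) and -2.05 for YNL194C (-3.72 to -0.38, unadjusted p = 0.0236). Both had an adjusted p of 0.554, and none of the 7 differences passed, as 0.0639% of all genes did with a higher ratio in the YJR13 pair and 0% with a lower one. Arrays 3 and 4, of different pairs, share an image name and may share a slide. Within that image the difference is array 3 minus array 4 alone, and array 3 stood apart from the rest. It was -2.58 for FMP45 and -3.97 for YNL194C.

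Levels in the single strains came from the separate channels, as log2 intensity after Aquantile normalization, and can be set against each other only within a gene. No array carried both mutants or both wild types. Between strains of 1 genotype, strain and array set can therefore not be told apart. FMP45 stood at 8.16 ± 0.77 in YJR13 and 9.42 ± 0.29 in YJR6, against 6.74 ± 0.54 in YJR12 and 6.09 ± 0.51 in MGD353-46D (SD, n = 3 channels each). YNL194C stood at 8.74 ± 0.62 in YJR13 and 10.2 ± 0.6 in YJR6, against 6.71 ± 0.51 in YJR12 and 6.10 ± 0.92 in MGD353-46D. In both genes YJR6 was highest, followed by YJR13, YJR12 and MGD353-46D, and the 6 mutant channels lay above the 6 wild type channels.

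LSP1 stood at 11.6 ± 0.7 in YJR13 and 12.6 ± 0.4 in YJR6, against 9.28 ± 0.32 in YJR12 and 10.2 ± 0.6 in MGD353-46D. PIL1 stood at 11.9 ± 1.0 in YJR13 and 12.4 ± 0.8 in YJR6, against 9.85 ± 0.73 in YJR12 and 10.4 ± 0.1 in MGD353-46D. NCE102 stood at 9.94 ± 0.67 in YJR13 and 11.0 ± 0.6 in YJR6, against 7.65 ± 0.52 in YJR12 and 8.03 ± 0.56 in MGD353-46D. In these 3 genes YJR6 and MGD353-46D were each the higher strain of their genotype.

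For 5 of 7 members every mutant channel exceeded every wild type channel, against 4.98% of all genes. PUN1 overlapped, at 8.56 ± 0.67 in YJR13 and 8.53 ± 0.36 in YJR6, against 7.75 ± 0.40 in YJR12 and 7.83 ± 0.11 in MGD353-46D. SUR7 overlapped too, at 7.67 ± 0.56 in YJR13 and 7.37 ± 0.27 in YJR6, against 8.31 ± 0.39 in YJR12 and 7.89 ± 0.25 in MGD353-46D.

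The strains of 1 genotype are neighbours in each of these orders, and no member differed between them at an adjusted p of 0.05 (limma on the channels). Strains of 1 genotype were never on the same array, so these contrasts hold strain and array set together. Of all genes, 0.243% were higher and 0.194% lower in YJR13 than in YJR6, and 0.0162% were higher and 0% lower in YJR12 than in MGD353-46D. Between the mutants, YJR13 minus YJR6 was -1.27 for FMP45 (95% interval -2.19 to -0.34, adjusted p = 0.344), -1.45 for YNL194C (-2.66 to -0.24, adjusted p = 0.411) and -1.07 for NCE102 (-2.07 to -0.07, adjusted p = 0.49). These 3 were lower in YJR13 at an unadjusted p under 0.05, where 338 of 6170 genes were lower and 255 higher. Between the wild types, YJR12 minus MGD353-46D ran between -0.91 for LSP1 (-1.89 to 0.08) and 0.65 for FMP45 (-0.27 to 1.58), and 0 members had an unadjusted p under 0.05, where 289 of 6170 genes were higher and 318 lower in YJR12.

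**Figure D3:**
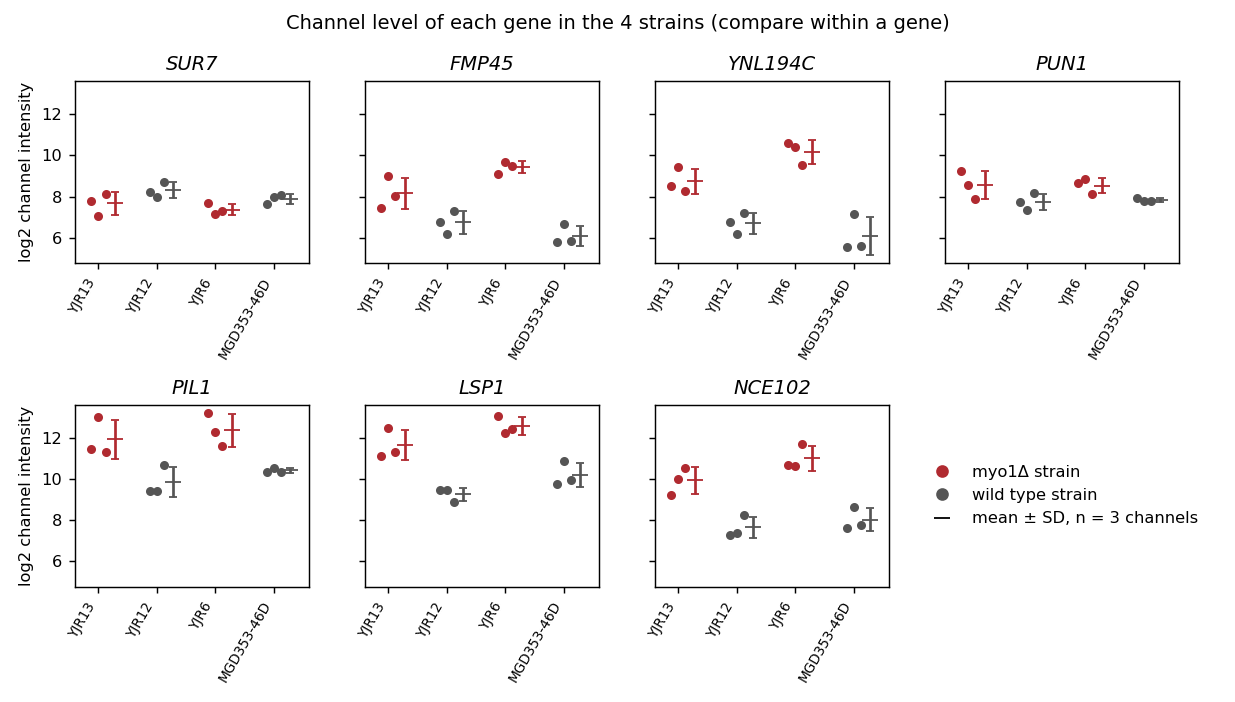
Log2 channel intensity (y axis) of each member in YJR13, YJR12, YJR6 and MGD353-46D (x axis), 3 channels per strain as points, with the mean and SD as a bar and each mutant left of its wild type. FMP45, YNL194C, PIL1, LSP1 and NCE102 have all mutant points above all wild type points, and PUN1 and SUR7 overlap.

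Other genes of the eisosome and the domain were read from a list of 13. Of these, 7 were higher and 0 were lower at an adjusted p of 0.05, where 14.2% of all genes were higher and 12.9% lower. The median log2 ratio was 0.75, and all 13 means were above 0, against a median of 0.00066 over all genes. EIS1, an eisosome protein needed for normal assembly, was at 1.61 (SE 0.30, adjusted p = 0.0113). YGR130C, another coat component, was at 1.23 (SE 0.20, adjusted p = 0.0076), and SEG1, which stabilizes the coat, at 0.42 (SE 0.11, adjusted p = 0.0270). SEG2 was at 0.23 (adjusted p = 0.173).

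RFS1 and YCP4 encode flavodoxin-like proteins of the domain. RFS1 was at 1.34 (SE 0.15, adjusted p = 0.0036), and YCP4 at 1.00 (SE 0.31, adjusted p = 0.0492). The third of that family, PST2, had no value on array 2 and averaged 0.49 over 5 arrays (adjusted p = 0.229). SLM1 encodes a lipid-binding protein that moves between eisosomes and the TORC2 kinase complex. It was higher by 1.40 (SE 0.29, adjusted p = 0.0153), while its paralogue SLM2 was at 0.04 (adjusted p = 0.840). Of the Pkh kinases, which phosphorylate Pil1 and Lsp1, PKH1 was higher by 0.75 (SE 0.18, adjusted p = 0.0242), PKH2 was at 0.80 (adjusted p = 0.0831) and PKH3 at 0.26 (adjusted p = 0.148). Without array 2 the count of 7 was 3 and without array 4 it was 4. SEG1 and YCP4 each kept their call in 10 of 18 alternatives.

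**Figure D4:**
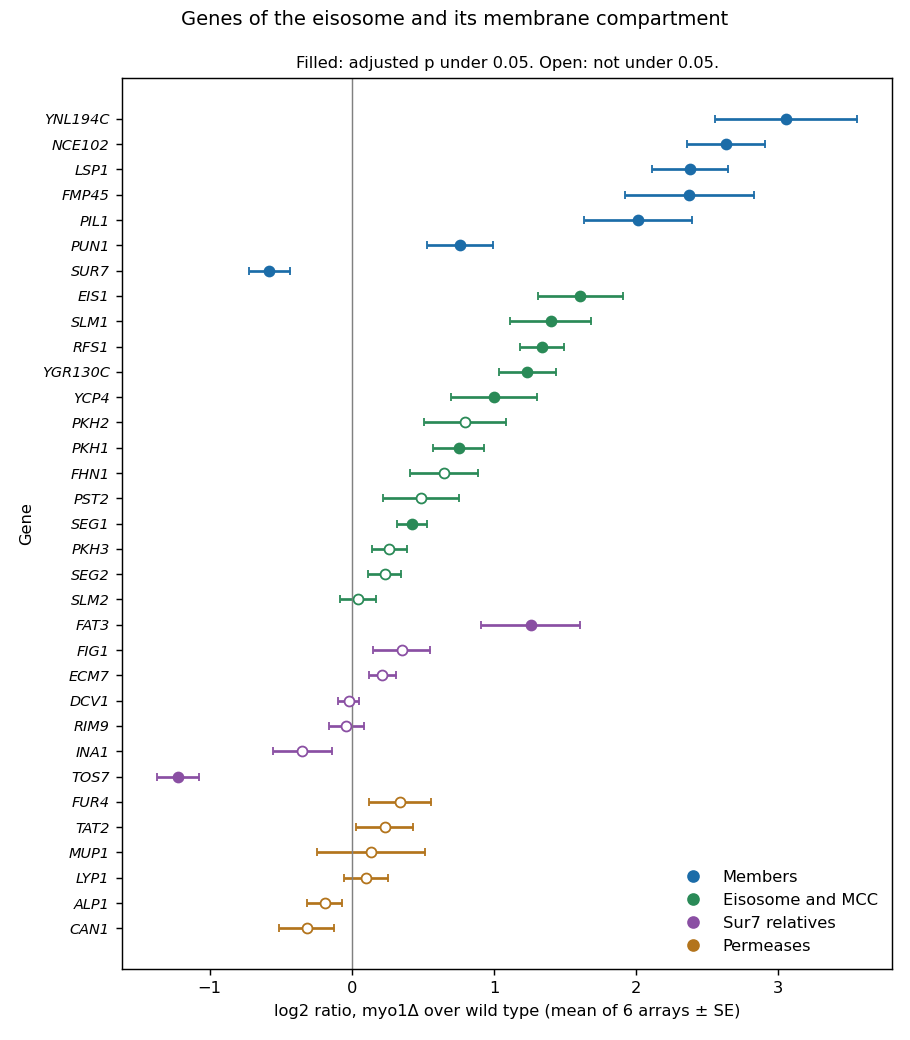
Mean log2 ratio of myo1Δ over wild type with its SE (x axis) for the members, for 13 other genes of the eisosome and its domain, for 7 further relatives of Sur7 and for 6 permeases of the domain (y axis), filled where the adjusted p was under 0.05. Members other than SUR7 lie right of 0, as do all 13 eisosome genes, while permeases scatter around 0.

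Among 7 further tetraspan relatives, 1 was higher and 1 was lower at 0.05, with a median of -0.02, and with 14.2% of all genes higher and 12.9% lower these counts are near the background. FAT3, linked to fatty acid uptake, was higher by 1.26 (SE 0.35, adjusted p = 0.0362), a call kept in 10 of 17 alternatives. TOS7 was lower on 6 of 6 arrays, at -1.22 (SE 0.15, adjusted p = 0.0039). INA1, which lies beside PUN1 on chromosome XII, was at -0.35 (adjusted p = 0.246). Of 6 permeases that reside in the domain, 0 were called in limma at 0.05, with a median of 0.12. CAN1, the arginine permease that gives the domain its name, was at -0.32 (SE 0.19, adjusted p = 0.253), and FUR4, the uracil permease, at 0.34 (SE 0.22, adjusted p = 0.283). None of the 6 had an unadjusted p under 0.05, where 1350 of 6255 genes were higher and 1197 lower.

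TORC2 and its Ypk kinases act downstream of the domain in membrane stress. Of 13 such genes, 5 were higher and 0 were lower at 0.05 (median 0.32), against 14.2% and 12.9% of all genes. They were FPK1 (1.52, SE 0.20), YPK2 (1.499, SE 0.27), LST8 (1.28, SE 0.31), KIN82 (1.02, SE 0.24) and AVO2 (0.86, SE 0.24), with adjusted p of 0.0043 to 0.0363. YPK1 was at -0.04 and TOR2 at 0.32 (adjusted p = 0.806 and 0.141).

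Of 26 genes of sphingolipid metabolism, 4 were higher and 4 were lower at 0.05 (median -0.11), which is near the 14.2% and 12.9% of all genes. ELO2, a fatty acid elongase, stood at -1.56 (SE 0.16, adjusted p = 0.0032). LAC1, a ceramide synthase subunit, was at -0.93 (SE 0.12, adjusted p = 0.0042). YPC1, a ceramidase, reached 1.52 (SE 0.25, adjusted p = 0.0076). SUR1, which acts in the synthesis of mannosylated sphingolipids, reached 1.64 (SE 0.32, adjusted p = 0.0134).

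In the membrane domain of the proton pump Pma1, which lies between the furrows, 2 of 8 genes were higher at 0.05, against 14.2% of all genes. These were HSP30, a stress-induced regulator of the pump, at 3.12 (SE 0.72, adjusted p = 0.0220), and PMP3, a small membrane protein, at 1.39 (SE 0.17, adjusted p = 0.0042). PMA1 had no value on array 1 and averaged 0.06 over 5 arrays (adjusted p = 0.947).

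Marker genes of the general stress response were higher on the same arrays. All 10 of 10 markers were higher at 0.05, against 14.2% of all genes, with a median log2 ratio of 3.49 (HSP12 5.19, CTT1 4.74 and DDR2 1.72 among them). Their median was 3.74, 4.27, 2.17, 5.60, 1.64 and 4.15 on arrays 1 to 6, against member medians of 1.66, 2.77, 0.75, 3.04, 1.72 and 2.49. Arrays 3 and 5 were low and array 4 high in the stress markers, and array 3 was low and array 4 high in the members. The part of a general stress state in the members' values was not tested.

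Of 11 target genes of the cell integrity pathway, 4 were higher at 0.05 (PIR3, SED1, SLT2 and FKS2) and 0 lower, against 14.2% and 12.9% of all genes. Of 8 sporulation genes 1 was higher, which is near that background. It was SPS100, at 2.79 (SE 0.36, adjusted p = 0.0042), and the regulators IME1 and NDT80 were at 0.01 and -0.02. Of the mating-type genes, 3 of 5 a-cell genes were higher at 0.05 over the 6 arrays, against 14.2% of all genes. Of 4 alpha-cell genes, 1 was lower, against 12.9%. Mating type differs within arrays 1 to 3 only, so these counts pool arrays with and without that difference. The array medians of the alpha-cell genes ran between -3.40 and 0.81. The part of mating type in the members' values was not tested.

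Genes nearest to a member on its chromosome were taken by distance, whichever side they lie on. Of 13 such genes measured, 6 were higher at 0.05 and 0 were lower, against 14.2% and 12.9% of all genes. The neighbours of FMP45 and YNL194C are named here after their values were seen. HBT1, next to FMP45, was at 2.86 (SE 0.25, adjusted p = 0.0022), and YNL195C, next to YNL194C, at 3.53 (SE 0.52, adjusted p = 0.0055). Neither overlaps its neighbour in the R64 annotation, and whether probes read RNA of the adjacent gene was not tested. CDC13, on the other side of FMP45, was at 0.03 (adjusted p = 0.820).

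The genes with the most similar pattern were those with the lowest root mean square difference of the 6 log2 ratios, among 6170 genes with a value on all arrays. For LSP1 they were NNR2 (0.19 on the log2 scale), MCR1 (0.41) and DDR48 (0.45). For NCE102 they were PIG2 (0.49), DAK1 (0.55) and SPG1 (0.57), and for PIL1 AHA1 (0.40), EDC2 (0.45) and PEX18 (0.50). For FMP45 they were MRK1 (0.48), GLO1 (0.61) and FMP16 (0.68), and for YNL194C CSR2, ATG39 and GID10 (0.66 to 0.69). For PUN1 they were ARG56 (0.17), NUS1 (0.19) and RCR1 (0.24), and for SUR7 AIM45 (0.13), FUN26 (0.19) and RIA1 (0.20). No member was among the 3 nearest genes of another. Across the 6 arrays the log2 ratios of member pairs correlated at r of -0.39 (PUN1 and NCE102) to 0.92 (FMP45 and YNL194C), with a median of 0.35 over 21 pairs, and all points share the same 6 hybridizations.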

How the data were processed

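The authors quantified the scanned arrays with ImaGene (6.0.0 per the file headers), and the deposited files hold the mean intensity and the median local background intensity of each spot. The authors' methods name limma for background correction, lowess within arrays and empirical Bayes tests. The deposited log2 ratios run Cy5 over Cy3, have array medians of -0.0103 to 0.0191 and were recomputed from the intensities to within 4.74e-08. They served as an alternative.

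Starting from the intensities, background was corrected by normexp (offset 50) and ratios were normalized by loess within arrays in limma 3.58.1 (R 4.3.3). Control spots and poor spots (flag 3, 32 to 192 per array) did not enter the loess fit, and poor spots were then left out. Spots marked empty were kept. Ratios were turned to myo1Δ over wild type and averaged per gene. Of 6256 genes 5756 took their symbol from the R64 RefSeq table. Means over 6 arrays were tested by lmFit and eBayes with Benjamini-Hochberg adjustment, with calls at 0.01 and 0.05. A second model gave the strain pairs and their difference, and a separate-channel fit with a dye term compared strains. SE is limma's moderated standard error. Related genes were compared within arrays by exact sign-flip tests. The number of arrays limits the precision. The fits were tested on simulated data.

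The members, the lists and the tests were chosen with earlier results of these data known. All members and MYO1 were named, any gene of a list of up to 15, the 4 smallest p of longer lists, the 3 most similar genes of each member, and chromosome neighbours. Alternatives were other background corrections, median centring, scaling between arrays, an intensity filter, other flags, a dye effect, strain pair or slide as a block, single spots, the deposited ratios and leaving out each array. Slides were inferred from image names that arrays share. In the difference between strain pairs, slide was a fixed term in place of a block.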

Additional observations from a re-analysis of the deposited data

Results flagged for a closer look

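Of 45 genes looked at for a single array far from the others, 1 was flagged, the lysine permease LYP1, whose log2 ratio on array 6 was -0.68 while the other 5 arrays lay between 0.12 and 0.45. Chance flags about 1 in 20 such genes. SLM2 was flagged because all 3 arrays of the YJR13 pair were below 0 (-0.16, -0.30 and -0.19) and all 3 of the YJR6 pair were above 0 (0.19, 0.29 and 0.41). The pair difference was -0.51, and it did not pass limma's test of the difference over all genes (adjusted p = 0.554).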

How the results depend on the processing

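The 6 rises and the fall at an adjusted p of 0.05 were 5 to 6 and 0 to 1 members under every alternative run. SUR7 was not called lower (0 members) after median centring or without array 1, 2, 5 or 6. With spots tested apart, a member counted only if its weaker spot passed. That gave 5 higher, without PUN1, and 0 lower, although 1 of the 2 spots of SUR7 and of PUN1 was called. At 0.01 the 3 higher members were 5 with plain subtraction, normexp at an offset of 0, median centring, scaling of the arrays, a filter on median intensity, every flagged spot left out or slide as a block, and 0 to 5 when single arrays were left out (0 without array 2 or 4, 1 without array 6). In the YJR13 pair, 0 higher members became 5 with plain subtraction, an offset of 0, median centring or scaling, 4 among genes above the median intensity, 3 with every flagged spot left out, and 1 with no spot left out or the deposited ratios. Scaling also gave 1 lower member there. Leaving out single arrays gave 0 to 2 in the YJR13 pair and 0 to 5 in the YJR6 pair, with 0 without array 4 or 6. The 13 eisosome and MCC genes gave 3 to 9 higher without single arrays, the TORC2 and Ypk genes 2 to 5 and the a-cell genes 0 to 2, and 0 to 3 alpha-cell genes were lower. Over all genes, 886 higher and 807 lower at 0.05 became 391 to 1102 and 424 to 1012 over the alternatives, and 217 higher and 248 lower at 0.01 became 2 to 568 and 2 to 447.

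Differences between related genes no longer passed an adjusted p of 0.05 in 2 settings. Those among SUR7, FMP45 and YNL194C were larger there than in the main setting, and that of NCE102 minus FHN1 was smaller. With plain subtraction the differences were -0.97 (FMP45 minus YNL194C), -4.20 (SUR7 minus FMP45), -5.17 (SUR7 minus YNL194C) and 1.66 (NCE102 minus FHN1). With an offset of 0 they were -1.24, -4.52, -5.77 and 1.45.

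Values that changed sign had not passed the threshold in either setting. YJR13 pair minus YJR6 pair became -0.0020 for PUN1 and -0.062 for PIL1 with no background correction, and -0.94 for PUN1 and -2.23 for PIL1 with slide as a block. LSP1 became 0.18 with plain subtraction, 0.19 with an offset of 0, 0.81 with median centring, 1.07 with scaling and 0.021 with every flagged spot left out. SUR7 became 0.22 with median centring, and NCE102 0.16 with median centring and 0.53 with scaling. YJR12 minus MGD353-46D became 0.023 for PUN1 and 0.033 for NCE102 with no background correction, and -0.48 for YNL194C with an offset of 0. SLM2 became -0.010 with scaling, and RIM9 0.077 with an offset of 0 and 0.0049 with scaling. Without single arrays, YJR13 pair minus YJR6 pair ranged between -0.27 and 0.17 for SUR7, -0.24 and 0.65 for PUN1, -0.63 and 0.87 for PIL1, and -0.53 and 0.43 for LSP1. YJR12 minus MGD353-46D ranged between -0.28 and 0.021 for PUN1 and -0.73 and 0.027 for NCE102. YJR13 minus YJR6 ranged between -0.38 and 0.34 for PUN1 and -1.03 and 0.12 for PIL1. The mean over arrays ranged between -0.033 and 0.11 for SLM2 and -0.11 and 0.033 for RIM9. The causes were not tested.

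Arrays could not be matched by replicate between the strain pairs, because the pairs share no replicate number. Mutant and wild type RNA were compared within each array in every test of ratios. The strain pairs were also compared within the image that arrays 3 and 4 share, which sets array 3 against array 4 alone. The spots of FMP45 and YNL194C in wild type channels, near the local background, limit what the arrays show about the size of their rises, and the dim spot of FHN1 limits its ratio.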
